A study of Mus musculus with 13 samples.

Results

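The genes described here are 10 chemokines of the inflammatory CXC and CC families among the 53379 genes counted in bulk RNA-seq libraries of CD45- thymic stroma. They comprise the neutrophil-type CXC ligands Cxcl1, Cxcl2 and Cxcl5, the Cxcr3 ligands Cxcl9 and Cxcl10, and the CC ligands Ccl2, Ccl5, Ccl7, Ccl8 and Ccl11. They were chosen by gene family, with the rise of inflammatory transcripts at day 1 in these same libraries already known, so every value of theirs that involves day 1 is given as a description without a p-value. All 10 passed the filter on low counts. The mice were wild-type C57BL/6 animals, 2 months old in every group, and the study used them to follow how the thymic stroma responds to acute injury. The 4 groups were steady state (n = 4 libraries, labelled untreated and carrying PBS in the names of the table's columns) and 3 times after total body irradiation at a sublethal dose (SL-TBI), namely day 1, day 4 and day 7 (n = 3 libraries each). The steady-state libraries are named, in the order used below, PBS day 1 replicate 2, PBS day 4 replicate 2, PBS day 7 replicate 1 and PBS day 7 replicate 2. The study's methods call the libraries biological replicates, and the number of animals behind each is not given in the sources used here, so the p-values measure the spread between libraries.

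Chemokines are small secreted proteins that bind G-protein-coupled receptors on leukocytes and draw the cells along their gradient. Cxcl1, Cxcl2 and Cxcl5 act on Cxcr2 and recruit neutrophils, Cxcl9 and Cxcl10 are interferon-induced ligands of Cxcr3 on activated T cells and NK cells, Ccl2 and Ccl7 act on Ccr2 and recruit monocytes, Ccl5 acts on Ccr1 and Ccr3 among others, Ccl8 is a further monocyte chemoattractant protein, and Ccl11 (eotaxin) recruits eosinophils through Ccr3. Fibroblasts, endothelial cells and epithelial cells make most of them after inflammatory or interferon signals, largely through NF-kB and through interferon-activated factors such as Stat2 and Irf9. A healthy thymus recruits its progenitors mainly with other, constitutive chemokines, such as Ccl25, Ccl21a and Cxcl12.

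The coordinates are those of the count table (build GRCm38). On chromosome 5, Cxcl5 (ENSMUSG00000029371) spans 90759360 to 90761624, Cxcl1 (ENSMUSG00000029380) spans 90891241 to 90893115 and Cxcl2 (ENSMUSG00000058427) spans 90903871 to 90905938, all on the plus strand. Cxcl9 (ENSMUSG00000029417, 92321347 to 92328079) and Cxcl10 (ENSMUSG00000034855, 92346638 to 92348889) lie further along on the minus strand. On chromosome 11, Ccl2 (ENSMUSG00000035385, 82035571 to 82037453), Ccl7 (ENSMUSG00000035373, 82045712 to 82047525), Ccl11 (ENSMUSG00000020676, 82057823 to 82062955) and Ccl8 (ENSMUSG00000009185, 82115185 to 82116799) follow each other on the plus strand, and Ccl5 (ENSMUSG00000035042, 83525778 to 83530518) lies on the minus strand. Of these genes, 1 shares exonic sequence with another gene: 5.91% of the exonic bases of Cxcl10 are also exonic in Art3.

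Promoter sequence was found in RefSeq (build GRCm38.p6) for 5 of the 10 genes: Cxcl1, Cxcl2, Cxcl9, Cxcl10 and Ccl8. The 250 bases before the start site were searched on both strands for an NF-kB motif (GGGANNTTCC), an interferon-stimulated response element (ISRE, GAAANNGAAA) and a gamma-activated site (GAS, TTCNNNGAA), where N is any base. Among all 32851 RefSeq promoters cut to the same length, 1.21% held the NF-kB motif, 2.98% the ISRE and 7.02% the GAS. Cxcl1, Cxcl2 and Cxcl10 held the NF-kB motif, Cxcl10 alone of the 5 genes held the ISRE, and the GAS was found in none of the 5. In Cxcl1 and Cxcl2 the motif reads on both strands, with the match on each strand shifted by 1 base, so the matches overlap in 1 stretch of sequence. The promoters of the first 4 genes are shown, because they contrast the pair of neighbouring neutrophil-type genes with the pair of neighbouring Cxcr3 ligands. They run 5′ to 3′ on the gene's own strand and end at the base before the start site, and the capitals mark the NF-kB and ISRE matches. The spans are chr5:90890995-90891244 (plus) for Cxcl1, chr5:90903649-90903898 (plus) for Cxcl2, chr5:92328080-92328329 (minus) for Cxcl9 and chr5:92348890-92349139 (minus) for Cxcl10.
Cxcl1: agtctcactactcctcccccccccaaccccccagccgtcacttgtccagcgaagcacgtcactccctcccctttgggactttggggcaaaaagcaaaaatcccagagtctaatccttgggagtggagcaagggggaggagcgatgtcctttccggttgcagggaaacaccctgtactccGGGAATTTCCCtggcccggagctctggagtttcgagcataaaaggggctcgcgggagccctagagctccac
Cxcl2: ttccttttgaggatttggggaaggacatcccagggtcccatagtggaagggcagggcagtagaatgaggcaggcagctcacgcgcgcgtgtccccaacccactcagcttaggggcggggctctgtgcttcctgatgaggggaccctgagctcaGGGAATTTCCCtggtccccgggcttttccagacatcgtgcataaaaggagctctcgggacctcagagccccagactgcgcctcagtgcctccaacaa
Cxcl9: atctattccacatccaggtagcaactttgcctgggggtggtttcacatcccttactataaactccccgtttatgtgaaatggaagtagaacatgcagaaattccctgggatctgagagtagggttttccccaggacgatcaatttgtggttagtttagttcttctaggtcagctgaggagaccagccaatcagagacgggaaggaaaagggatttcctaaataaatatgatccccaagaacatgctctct
Cxcl10: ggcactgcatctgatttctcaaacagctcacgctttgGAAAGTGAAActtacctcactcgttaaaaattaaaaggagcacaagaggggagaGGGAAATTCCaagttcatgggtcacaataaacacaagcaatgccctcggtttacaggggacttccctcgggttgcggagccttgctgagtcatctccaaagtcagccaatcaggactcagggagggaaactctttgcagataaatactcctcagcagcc
The NF-kB stretch lies at positions -71 to -61 from the start site in Cxcl1 and at -97 to -87 in Cxcl2. In Cxcl10 the NF-kB match lies at -159 to -150 and the ISRE match at -213 to -204. No match was found in the windows of Cxcl9 and Ccl8. A match is a description of the letters and not of a bound site.

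Sequencing depth ranged from 15721866 counts (day 4 replicate 1) to 52056896 counts (day 4 replicate 2) per library. Levels are given as CPM (counts per gene scaled by library size, with the sizes normalized by the trimmed mean of M values). The labelled stroma was checked against its markers: Pdgfra was measured at 616 to 1282 CPM, Pecam1 at 199 to 432 CPM and Foxn1 at 10.9 to 94.6 CPM, so fibroblast, endothelial and thymic epithelial transcripts were present in all 13 libraries. Ptprc, which encodes CD45, was also present in all 13, at 4.07 to 606 CPM, with the highest values in day 7 replicates 2 (606 CPM) and 3 (224 CPM). In the deviations of log2 CPM from each gene's mean over the 13 libraries, the fifth of genes richest in GC stood 0.58 log2 units below the fifth poorest in GC in day 1 replicate 1, against 0.38 and 0.34 log2 units above it in the other day 1 libraries. In bulk samples, fewer cells of a type and less RNA per cell cannot be told apart.

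At day 1 the 10 chemokines ranged from levels far above steady state to levels close to it. Cxcl5, Cxcl10, Ccl2 and Ccl7 were 12.7- to 29.8-fold higher, Ccl8 was 5.75-fold higher, Ccl11 and Ccl5 were 2.54-fold higher and Cxcl9, Cxcl2 and Cxcl1 were 1.55- to 1.68-fold higher. The size of the highest values moved with single steady-state libraries: without PBS day 4 replicate 2 the log2 fold change went from 4.90 to 5.75 for Cxcl5 and from 3.67 to 4.48 for Ccl2, and without PBS day 1 replicate 2 it went from 4.17 to 5.0 for Cxcl10. All of them had lower fitted levels at day 4 than at day 1. At day 7 the levels of Cxcl2, Cxcl9, Cxcl10 and Ccl5 lay below those of every steady-state library, whereas Ccl2, Ccl7 and Ccl11 lay within the steady-state range.

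Among the neutrophil-type ligands, Cxcl5 showed the widest span. Cxcl5 was measured at 3.46, 20.1, 7.34 and 3.53 CPM in the steady-state libraries, at 397, 237 and 138 CPM at day 1, at 9.68, 27.5 and 12.7 CPM at day 4 and at 6.42, 11.1 and 11.7 CPM at day 7. The lowest day 1 library lay above every other library, while the steady-state, day 4 and day 7 values overlapped. The log2 fold change at day 1 was 4.90 ± 0.66 (SE).

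Cxcl2, which shares its receptor with Cxcl5, was measured at 6.95, 1.95, 2.35 and 1.84 CPM at steady state, at 6.39, 3.95 and 5.09 CPM at day 1, at 1.42, 2.16 and 1.67 CPM at day 4 and at 0.144, 0.594 and 0.298 CPM at day 7. The day 7 libraries were the lowest of all 13, and they rested on 7, 29 and 11 counts. The library PBS day 1 replicate 2 lay inside the day 1 range, so steady state and day 1 overlapped (log2 fold change 0.65 ± 0.52). Without that library the day 1 difference was 1.38 on the log2 scale. Cxcl1, the third neutrophil-type ligand, ranged from 6.91 to 29.2 CPM at steady state, from 22.4 to 42.2 CPM at day 1, from 12.7 to 28.3 CPM at day 4 and from 8.12 to 11.3 CPM at day 7, and the steady-state libraries overlapped with those of each later day.

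**Figure D1:**
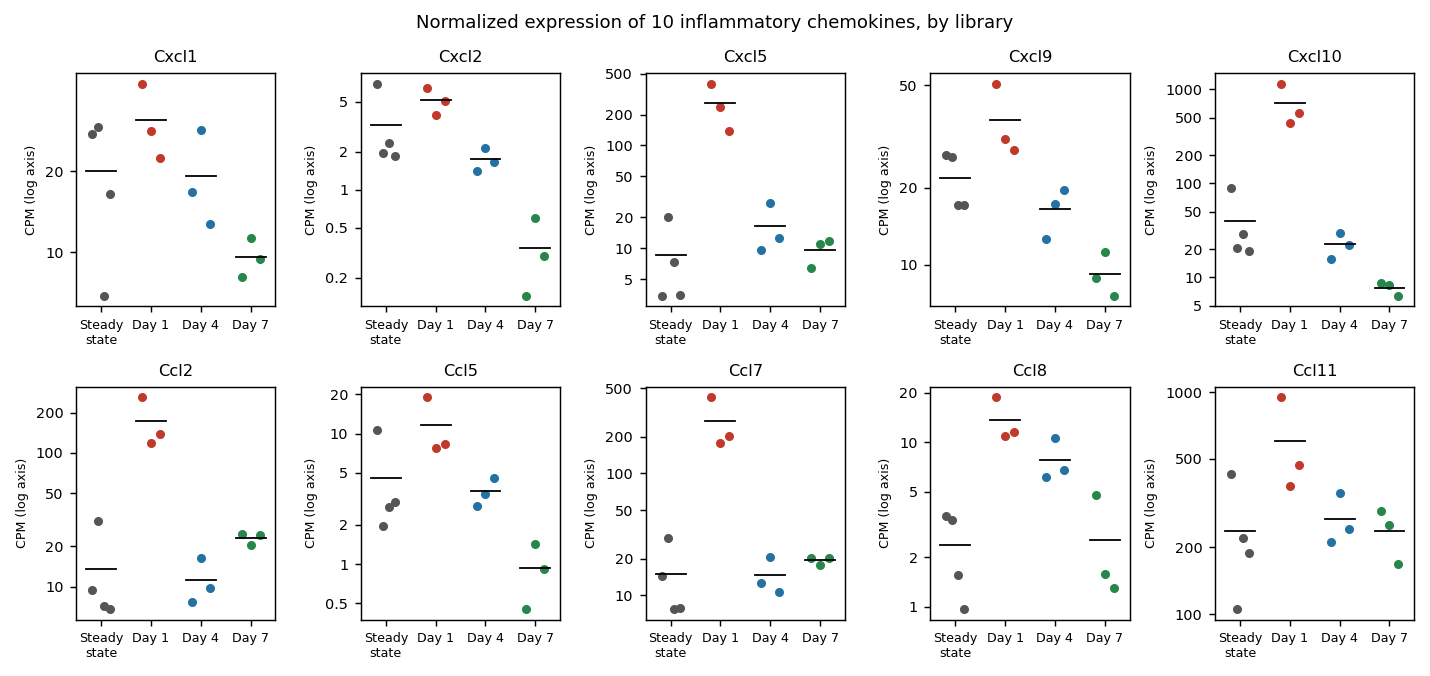
Normalized level of each chemokine (CPM, log axis, with its own scale in each panel) in the 4 steady-state libraries and the 3 libraries of each day after SL-TBI. Points are libraries and bars are the means. Cxcl5, Cxcl10, Ccl2 and Ccl7 stand far above all other libraries at day 1, and Cxcl2, Cxcl9, Cxcl10 and Ccl5 are lowest at day 7.

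Of the Cxcr3 ligands, Cxcl10 was measured at 88.9, 20.7, 29.2 and 19.3 CPM at steady state, at 1142, 434 and 554 CPM at day 1, at 15.7, 29.5 and 22.3 CPM at day 4 and at 8.64, 8.34 and 6.37 CPM at day 7. Its day 1 and day 7 libraries lay on opposite sides of the steady-state range, with a log2 fold change of 4.17 ± 0.54 at day 1. Cxcl9, the neighbouring gene and a ligand of the same receptor, was measured at 26.7, 26.2, 17.1 and 17.1 CPM at steady state, at 50.6, 30.9 and 27.9 CPM at day 1, at 12.7, 17.3 and 19.5 CPM at day 4 and at 8.92, 11.2 and 7.59 CPM at day 7. Its day 1 libraries also lay above all steady-state libraries, but by a log2 fold change of 0.74 ± 0.28. Both genes had their lowest levels at day 7.

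Among the CC ligands, the monocyte attractants Ccl2 and Ccl7, which are neighbours on chromosome 11, had nearly parallel profiles. Ccl2 was measured at 9.41, 31.1, 7.14 and 6.78 CPM at steady state, at 262, 119 and 140 CPM at day 1, at 7.68, 16.3 and 9.76 CPM at day 4 and at 24.8, 20.5 and 24.3 CPM at day 7. Ccl7 was measured at 14.5, 29.5, 7.70 and 7.80 CPM at steady state, at 423, 178 and 202 CPM at day 1, at 12.5, 20.6 and 10.7 CPM at day 4 and at 20.4, 17.6 and 20.2 CPM at day 7. For both genes the day 1 libraries lay above all others, PBS day 4 replicate 2 was the highest steady-state library, and the day 7 libraries lay inside the steady-state range. The log2 fold changes at day 1 were 3.67 ± 0.53 for Ccl2 and 4.17 ± 0.49 for Ccl7.

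Ccl8 was measured at 3.57, 3.38, 1.55 and 0.968 CPM at steady state, at 18.8, 10.9 and 11.5 CPM at day 1, at 6.13, 10.6 and 6.78 CPM at day 4 and at 4.76, 1.58 and 1.30 CPM at day 7. It was the only one of the 10 whose libraries lay above steady state at both day 1 (log2 fold change 2.52 ± 0.52) and day 4. Ccl5 was measured at 10.7, 1.95, 2.75 and 3.0 CPM at steady state, at 19.1, 7.75 and 8.36 CPM at day 1, at 2.78, 3.44 and 4.59 CPM at day 4 and at 0.451, 1.43 and 0.922 CPM at day 7. Its day 7 libraries lay below all steady-state libraries, and PBS day 1 replicate 2 lay inside the day 1 range.

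Ccl11, the eosinophil attractant, had the highest counts at steady state. It ranged from 105 to 428 CPM at steady state, from 379 to 948 CPM at day 1, from 212 to 351 CPM at day 4 and from 168 to 293 CPM at day 7. The lowest steady-state value was that of PBS day 4 replicate 2 and the highest that of PBS day 1 replicate 2, the reverse of their order for Ccl2 and Ccl7. The groups overlapped at day 1, with a log2 fold change of 1.35 ± 0.43.

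Divided by exonic length, so that genes can be set side by side, Ccl11 was the most abundant of the 10 at steady state, with 218 ± 127 CPM per kilobase (mean ± SD, n = 4), and its libraries did not overlap with those of the gene next in order, Ccl7, at 18.6 ± 12.8 CPM per kilobase. From Ccl7 down to Cxcl2, at 1.58 ± 1.19 CPM per kilobase, each gene overlapped with its neighbour in the order. At day 1 the order opened with Ccl11 (554 ± 282 CPM per kilobase, n = 3), Ccl7 (334 ± 169), Cxcl10 (315 ± 168), Ccl2 (153 ± 67.8) and Cxcl5 (138 ± 70.2), whose neighbours overlapped, and a gap separated these 5 from Ccl8 (26.8 ± 8.60) and the rest. At day 7 the order was Ccl11 (219 ± 58.5 CPM per kilobase), Ccl7 (24.2 ± 1.95) and Ccl2 (20.4 ± 2.07), each apart from the next. The lowest Ccl7 library, at 21.9 CPM per kilobase, lay close to the highest Ccl2 library, at 21.8. Cxcl2 again closed the order, at 0.167 ± 0.111 CPM per kilobase. Without division by length, Ccl2 came before Ccl7 at day 7 (23.2 against 19.4 CPM). At steady state, Cxcl10 (39.5 CPM) and not Ccl7 (14.9 CPM) then came next after Ccl11.

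The summed level of the 10 genes was 300 ± 140 CPM per kilobase at steady state and 1564 ± 774 CPM per kilobase at day 1. It was 330.3 ± 94.9 CPM per kilobase at day 4 and 287 ± 60.4 CPM per kilobase at day 7. Ccl11 made up 70.7 ± 17.0% of the sum at steady state (45.3% to 80.6% over the 4 libraries) and 35.2 ± 1.78% at day 1. At day 1, Ccl7 made up 21.3 ± 0.238%, Cxcl10 19.9 ± 1.39%, Ccl2 9.89 ± 0.498% and Cxcl5 9.0 ± 2.91% of the sum. Without division by length, Cxcl10 came first at day 1, at 33.3 ± 2.55% of the summed CPM, ahead of Ccl11 (28.3 ± 1.66%), and Ccl7 made up 12.7 ± 0.197%. The sums of the day 1 libraries ranged from 1053 to 2455 CPM per kilobase while the share of Ccl11 ranged from 33.3% to 36.8%. At day 4 and day 7, Ccl11 made up 75.2 ± 1.04% and 75.8 ± 5.08%. Ccl8 had its highest share at day 4, at 4.63 ± 0.109% against 1.62 ± 0.986% at steady state. Since shares sum to a whole, a higher share of one gene lowers those of the others.

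**Figure D2:**
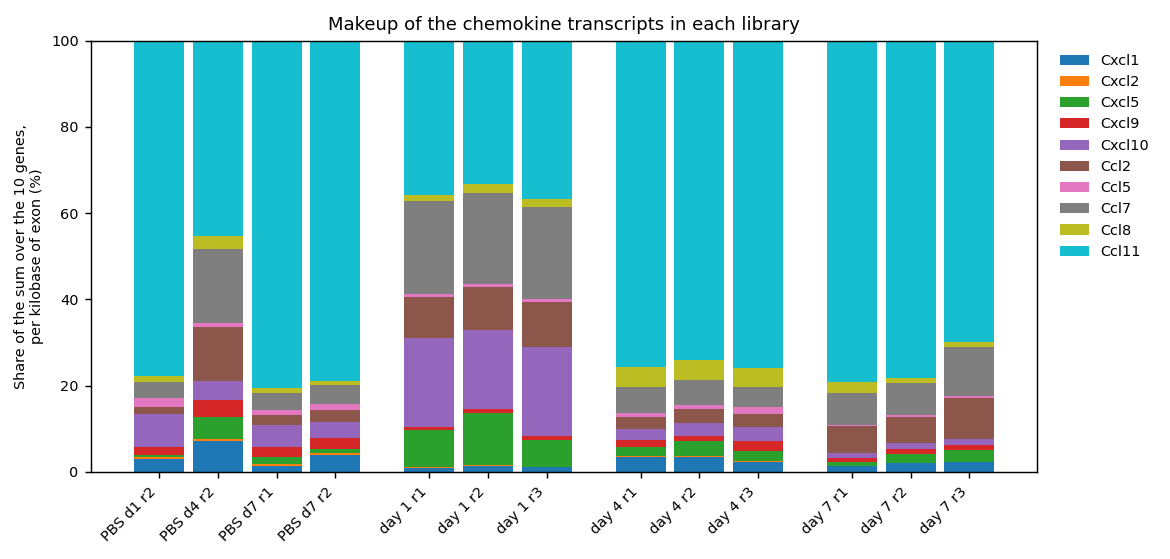
Share of each chemokine in the summed level of the 10 genes (CPM per kilobase of exon, in %), with 1 bar per library, named by group and replicate. Ccl11 makes up 35.2 ± 1.78% of the sum at day 1 and 69.9% or more in 9 of the 10 other libraries, the exception being PBS day 4 replicate 2 at 45.3%.

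The fit across all 19984 genes that passed the filter was used for each comparison, with an adjusted p (edgeR quasi-likelihood F-test, Benjamini-Hochberg) of 0.05 or less as the threshold. Against steady state, the fitted level at day 1 was higher for 10 of 10 genes, with a median log2 fold change of 1.93 against -0.10 over all genes. Past the threshold were 5 of the 10 (Cxcl5, Cxcl10, Ccl2, Ccl7 and Ccl8), and the libraries of 6 (these and Cxcl9) did not overlap with steady state. Of all genes, 1.68% rose past the threshold, 0.671% fell, and 7.25% lay above steady state without overlap. As the 10 were chosen with this contrast known, nothing is read from these counts or from the calls in alternative fits given below. The tag in the column names, a sequence of letters whose meaning is not given in the sources used here, differed between libraries of the same group, and a fit with the tag as a covariate also placed 5 of the 10 past the threshold. Ccl8 was not past it without PBS day 7 replicate 1, PBS day 7 replicate 2 or day 1 replicate 1 (log2 fold changes of 2.44, 2.28 and 2.23) or with the replicate number as a block. Without PBS day 1 replicate 2, Ccl11 and Ccl5 also passed, with log2 fold changes of 1.86 and 2.25, and DESeq2 placed Ccl11 but not Ccl5 past the threshold.

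At day 4 none of the 10 passed the threshold against steady state in the edgeR fit, their fold changes had a median of -0.16 on the log2 scale against -0.13 over all genes, and 1 of the 10 had an unadjusted p under 0.05, against 13.02% of all genes. Of all genes, 0.05% rose and 0.240% fell. Ccl8 was the gene with the unadjusted p under 0.05, at a log2 fold change of 1.72 ± 0.52 (adjusted p = 0.209, edgeR), and all 3 of its day 4 libraries lay above the 4 steady-state libraries. Such a separation was seen in 6.44% of all genes. DESeq2 placed 1 of the 10, Ccl8, past the threshold, where 1.35% of all genes rose and 1.87% fell. For Cxcl5 the difference was 0.95 ± 0.59 (adjusted p = 0.483, edgeR), for Cxcl10 it was -0.81 ± 0.51 (adjusted p = 0.49, edgeR), and for the other genes it lay between -0.90 and 0.18. The directions of Cxcl1 and Ccl7 turned under several settings, and those of Cxcl10, Ccl2, Ccl5 and Ccl11 when single libraries were left out.

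**Figure D3:**
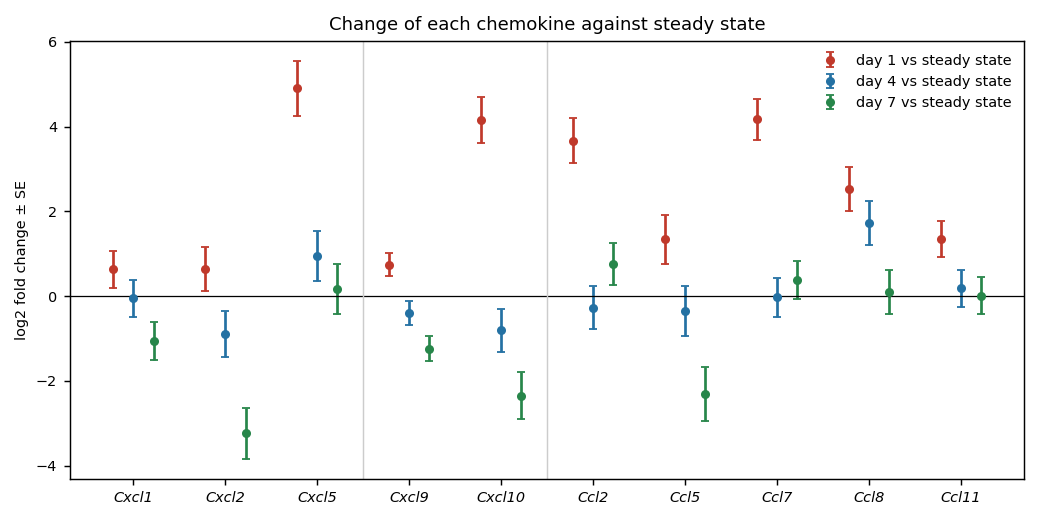
Log2 fold change against steady state of each chemokine at days 1, 4 and 7 after SL-TBI, with the standard error from the fit across all genes (n = 3 libraries per day against 4 at steady state). The vertical lines separate the neutrophil-type ligands, the Cxcr3 ligands and the CC ligands. The 10 values at day 1 are above 0, from 0.63 for Cxcl1 to 4.90 for Cxcl5, and those of Cxcl2, Cxcl10 and Ccl5 at day 7 are between -3.23 and -2.30.

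At day 7 the neutrophil-type ligand Cxcl2, the Cxcr3 ligands and Ccl5 had their lowest levels, yet none of the 10 passed the threshold in the edgeR fit against steady state. Cxcl2 differed by -3.23 ± 0.61 on the log2 scale (adjusted p = 0.111), Cxcl10 by -2.34 ± 0.55 (adjusted p = 0.117), Ccl5 by -2.30 ± 0.64 (adjusted p = 0.133), Cxcl9 by -1.24 ± 0.29 (adjusted p = 0.117) and Cxcl1 by -1.05 ± 0.45 (adjusted p = 0.309). These 5 had an unadjusted p under 0.05, as did 13.5% of all genes, and for the first 4 every day 7 library lay below every steady-state library, as it did in 4.67% of all genes. In the same fit 0.005% of all genes rose and 0% fell past the threshold. Cxcl2 passed it without PBS day 4 replicate 2 (-3.42, adjusted p = 0.0454) and without day 7 replicate 1 (-2.86, adjusted p = 0.0342). DESeq2 and the edgeR fit without a filter on low counts each placed 4 of the 10 past it, and both placed the same genes there: Cxcl2, Cxcl9, Cxcl10 and Ccl5. Of all genes tested, 3.5% fell by DESeq2 and 0.966% without a filter.

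The differences at day 7 depended in size on PBS day 1 replicate 2. Without it they were -2.58 for Cxcl2 (adjusted p = 0.181, edgeR), -1.57 for Cxcl10 (adjusted p = 0.256) and -1.48 for Ccl5 (adjusted p = 0.302), whereas Cxcl9 remained at -1.14 (adjusted p = 0.264). Among the other CC ligands, Ccl2 differed from steady state by 0.77 ± 0.50 (adjusted p = 0.601, edgeR), Ccl7 by 0.38 ± 0.45, Ccl8 by 0.10 ± 0.52 and Ccl11 by 0.01 ± 0.43. Without PBS day 4 replicate 2, the steady-state library with the highest Ccl2, the difference of Ccl2 was 1.57 (adjusted p = 0.051). Over the 10 genes, the median difference at day 7 was -0.52 on the log2 scale against 0.0024 over all genes.

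Between the days after irradiation, all comparisons with day 1 share the day 1 libraries and are given as descriptions. The genes were chosen with day 1 known, so nothing is read from calls past the threshold, in the main fit or the alternatives. From day 1 to day 4, the fitted levels of 10 of 10 genes were lower, 4 past the threshold (Cxcl5, Cxcl10, Ccl2 and Ccl7, by -3.95, -4.98, -3.94 and -4.19 on the log2 scale), and the libraries of 9 did not overlap. Of all genes, 1.07% fell past the threshold and 13.7% lay lower without overlap. Ccl8 differed the least of the CC ligands, by -0.80 ± 0.55. From day 1 to day 7, 9 of the 10 were past the threshold (all but Ccl11, which differed by -1.34 ± 0.47), and the libraries of all 10 lay lower without overlap. Of all genes, 4.45% fell and 14.8% lay lower without overlap. The differences from day 1 to day 7 ran from -1.34 for Ccl11 to -6.51 ± 0.68 for Cxcl10. Over the 21 alternative fits, Cxcl1 was past the threshold in 9, Ccl8 in 17, Ccl2 in 20 and Ccl11 in 2, with fold changes of Cxcl1 between -2.02 and -1.40. Cxcl5 was past the threshold from day 1 to day 4 in 19 of them, the exceptions being those without day 4 replicate 1 (-3.63) and without day 4 replicate 3 (-3.78).

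Day 7 was also compared with day 4, a contrast that shares no library with day 1. No gene of the 10 passed the threshold (edgeR), with 5 at an unadjusted p under 0.05 against 18.7% of all genes. Of all genes, 2.77% rose and 1.13% fell. Cxcl2 came closest, at a log2 fold change of -2.33 ± 0.61 (adjusted p = 0.0515, edgeR), and it passed in 7 of 20 alternative fits, among them those without PBS day 1 replicate 2 (adjusted p = 0.0134), PBS day 4 replicate 2 (adjusted p = 0.0459) or PBS day 7 replicate 1 (adjusted p = 0.0484). Without PBS day 1 replicate 2, Cxcl10 (-1.64) and Ccl5 (-2.07) passed too, and Ccl8 did without day 7 replicate 1 (-2.45). The libraries of 6 genes (Cxcl1, Cxcl2, Cxcl9, Cxcl10, Ccl5 and Ccl8) lay lower at day 7 without overlap, as did 14.0% of all genes. Ccl2 alone of the 10 lay higher at day 7 without overlap (1.04 ± 0.54, adjusted p = 0.33, edgeR), as did 12.2% of all genes. DESeq2 placed 4 of the 10 past the threshold, Cxcl2, Cxcl10, Ccl5 and Ccl8, where 4.43% of all genes fell.

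Across the 13 libraries, the log2 levels of the 45 pairs of chemokines were correlated with Pearson's r between 0.37 and 0.98. These coefficients are descriptions: the libraries are not independent of their group, and the day 1 libraries weigh on every pair. Ccl2 and Ccl7, the neighbouring monocyte attractants, had the highest coefficient (r = 0.98, and 0.95 after the group means were taken out). Cxcl2 and Ccl5, which differ in family, chromosome and receptor, followed within groups at 0.91, and Cxcl10 and Ccl11 at 0.91. PBS day 1 replicate 2 was the highest steady-state library for Cxcl2, Ccl5, Cxcl10 and Ccl11, and also for Cxcl9 and Ccl8. Day 1 replicate 1 was the highest day 1 library for every one of the chemokines. The weight of these single libraries in the coefficients was not tested. After the group means were taken out, 6 of the 45 coefficients were below 0, the lowest for Cxcl5 and Ccl11 (-0.25). The median within groups was 0.42 over the 14 pairs of the same role and 0.55 over the 31 pairs of different roles.

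The genes whose log2 levels were most like the mean profile of each role group over the 13 libraries were named as a description of likeness. For the neutrophil-type ligands they were Il6 (r = 0.95), Tmem252, BC023105, Map3k8 and Saa1 (r = 0.92). Il6, which encodes an acute inflammatory cytokine, averaged 4.46 CPM at steady state, 28.2 CPM at day 1, 5.35 CPM at day 4 and 1.43 CPM at day 7. For the Cxcr3 ligands they were Saa1 (r = 0.96), Map3k8, Got1, Klk6 and Tgtp2 (r = 0.93). Saa1, an acute-phase serum amyloid gene, averaged 6.83, 53.7, 5.50 and 1.47 CPM over the same groups. For the CC ligands they were Ifi47 (r = 0.98), Iigp1, Rtp4, Ifi27l2a and Gm12250 (r = 0.97). Iigp1, an interferon-inducible GTPase, averaged 164 CPM at steady state, 1233 CPM at day 1, 216 CPM at day 4 and 137 CPM at day 7.

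The other chemokines formed a list of 27 genes, of which 26 passed the filter. This list and those of receptors and inducing pathway genes follow family or pathway. They were drawn up with earlier results of these data known. Their p-values at day 1 describe the spread between libraries and are no independent test. At day 1, 3 of the 26 passed the threshold against steady state, and all 3 rose: Ccl3, Ppbp and Cxcl13. The shares over all genes were 1.68% rising and 0.671% falling. Cxcl13, the B-cell attractant that binds Cxcr5, was measured at 35.0, 87.1, 156 and 94.0 CPM at steady state and at 696, 547 and 329 CPM at day 1, a log2 fold change of 2.49 ± 0.45 (adjusted p = 0.00894, edgeR). The groups did not overlap, and its level at day 7 still averaged above steady state (0.92 ± 0.44, adjusted p = 0.392). Ppbp, a platelet chemokine of the CXC family, went from 1.01 to 2.15 CPM at steady state to 6.70 to 11.4 CPM at day 1 (2.61 ± 0.46, adjusted p = 0.00745). Ppbp did not pass with the replicate number as a block (adjusted p = 0.0571), and Cxcl13 did not pass in the fit of the compared groups alone (adjusted p = 0.0511). Ccl3, a ligand of Ccr1, was measured at 3 to 30 counts per library at steady state and at 49 to 160 counts at day 1 (3.49 ± 0.75, adjusted p = 0.0272). It did not pass without PBS day 7 replicate 1 or 2 or without any 1 of the day 1 libraries, which left 2 of the 26 past the threshold. The list's median was 0.36 on the log2 scale. At days 4 and 7 no gene of the list passed in the edgeR fit, with 6 and 7 of the 26 at an unadjusted p under 0.05, against 13.02% and 13.5% of all genes. DESeq2 placed 3 past the threshold at day 4 (1.35% of all genes rose and 1.87% fell) and 6 at day 7 (1.91% rose and 3.5% fell).

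None of the constitutive thymic chemokines within that list passed at day 1. Ccl25, which attracts thymocyte progenitors through Ccr9, differed by -1.64 ± 0.58 (adjusted p = 0.171, edgeR, unadjusted p = 0.0142), Ccl21a by -0.08 ± 0.43 and Cxcl12 by 0.56 ± 0.25 (adjusted p = 0.283). Ccl21a has near-identical copies in the genome, so its counts are uncertain. Ccl20, the Ccr6 ligand, differed at day 7 by -2.97 ± 0.73 (adjusted p = 0.117), and its steady-state values were 87.0, 10.7, 29.7 and 10.9 CPM, with PBS day 1 replicate 2 again the highest. Cxcl3, a further neutrophil-type ligand beside Cxcl1 and Cxcl2, differed by 1.06 ± 0.41 at day 1 (adjusted p = 0.217) and by -1.80 ± 0.45 at day 7 (adjusted p = 0.117).

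Of the 8 chemokine receptors listed, 7 passed the filter, and 2 of them rose at day 1, where 1.68% of all genes rose. Ackr1, an atypical receptor of venular endothelium and erythroid cells that binds both CXC and CC ligands without G-protein signalling, went from 5.57, 21.4, 6.43 and 11.3 CPM at steady state to 66.2, 45.2 and 29.2 CPM at day 1 (2.07 ± 0.43, adjusted p = 0.0222, edgeR). Cxcr2, the receptor of Cxcl1, Cxcl2 and Cxcl5 on neutrophils, was counted 5, 2, 2 and 0 times at steady state and 60, 13 and 79 times at day 1 (4.49 ± 0.89, adjusted p = 0.0162). Ccr2, the receptor of Ccl2 and Ccl7, differed by -1.45 ± 0.72 (adjusted p = 0.328), Cxcr3 by -1.26 ± 1.01 (adjusted p = 0.555) and Ccr3 by 0.34 ± 0.62. Cxcr2 did not pass without PBS day 7 replicate 1, day 1 replicate 1 or day 1 replicate 3, and Ackr1 did not pass without PBS day 7 replicate 1 or 2 or day 1 replicate 1 or 2 (adjusted p between 0.0636 and 0.119), which left 0 to 2 receptors past the threshold. Neither passed with the replicate number as a block, and Ackr1 did not pass in the fit of the compared groups alone (adjusted p = 0.108). The median over the 7 receptors was 0.34. At days 4 and 7 no receptor passed in the edgeR fit or by DESeq2. At an unadjusted p under 0.05 (edgeR) were 2 and 0 of the 7, against 13.02% and 13.5% of all genes.

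Among 20 genes of the pathways known to induce these chemokines, 3 passed the threshold at day 1, and all 3 rose. The shares over all genes were 1.68% rising and 0.671% falling. As with the other related lists, the p-values at day 1 are no independent test. Stat2, a transcription factor of type I interferon signalling, went from 111, 52.7, 94.4 and 89.6 CPM at steady state to 297, 331 and 283 CPM at day 1 (1.81 ± 0.24, adjusted p = 0.000916, edgeR). Its DNA-binding partner Irf9 rose too (1.33 ± 0.23, adjusted p = 0.00663), though not in the fit of the compared groups alone (adjusted p = 0.0514). Myd88, the adaptor of Toll-like and IL-1 receptors, rose by 1.20 ± 0.25 (adjusted p = 0.0238), a call that was lost without PBS day 1 replicate 2, PBS day 7 replicate 1 or 2 or day 1 replicate 1 (adjusted p between 0.0573 and 0.119), which left 2 genes, and also with the replicate number as a block, with the GC trend removed and in the fit of the compared groups alone. The subunits of NF-kB did not pass in the main fit: Rela differed by -0.03 ± 0.16, Nfkb1 by -0.03 ± 0.34, Nfkb2 by -0.65 ± 0.43, Relb by -0.50 ± 0.62 and Rel by -0.40 ± 0.31. The NF-kB inhibitor Nfkbia differed by -0.48 ± 0.33, and Tnfaip3, a feedback inhibitor of NF-kB signalling, by -1.35 ± 0.44 (adjusted p = 0.138). Tnfaip3 passed the threshold by DESeq2, and Tnfaip3 and Nfkb2 passed it with the column tag as a covariate. These values are transcript levels, and the activity of NF-kB was not measured. The median over the 20 genes was -0.08, and none passed at day 4 or day 7 in the edgeR fit. At an unadjusted p under 0.05 were 5 and 1 of them, against 13.02% and 13.5% of all genes. DESeq2 placed 0 and 1 of the 20 (Nfkbiz) past the threshold, where 1.35% and 1.91% of all genes rose and 1.87% and 3.5% fell.

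**Figure D4:**
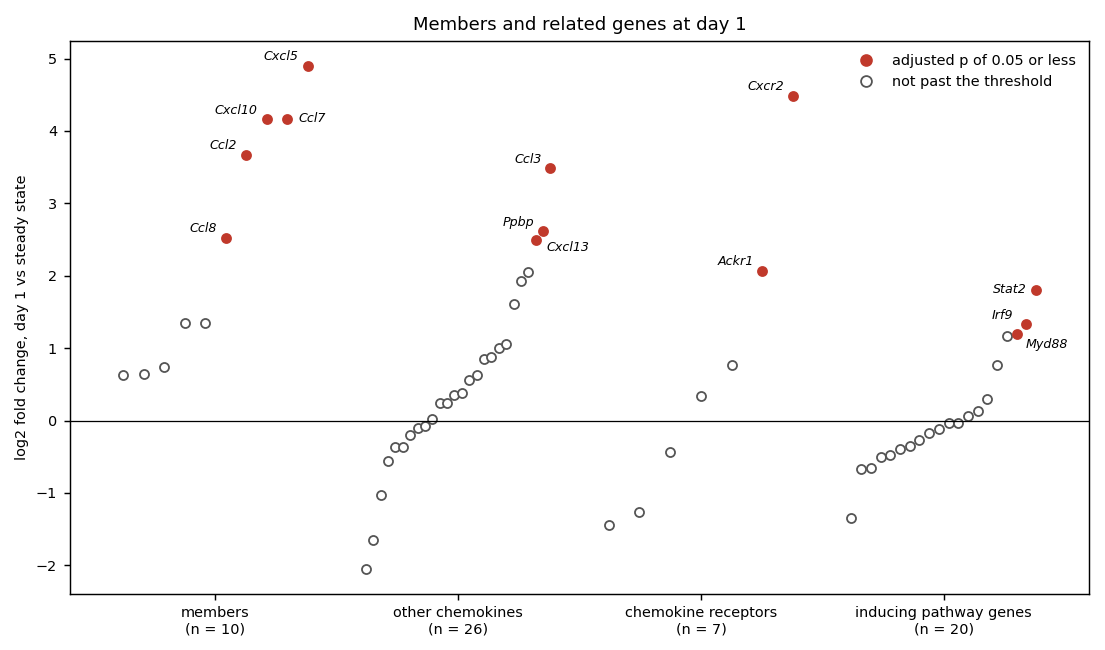
Log2 fold change at day 1 against steady state (3 against 4 libraries) of the 10 chemokines, 26 other chemokines, 7 chemokine receptors and 20 inducing pathway genes, sorted within each list. Filled points are past an adjusted p of 0.05, which held for 5, 3, 2 and 3 genes of the 4 lists, and no gene of these lists is past the threshold downward. The shares over all genes were 1.68% rising and 0.671% falling.

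Markers of leukocytes, which also make or receive several of these ligands, were also measured. The summed level of 10 macrophage and monocyte markers was 79.8 to 229 CPM at steady state, 126 to 165 CPM at day 1, 97.0 to 181 CPM at day 4 and 117 to 189 CPM at day 7, so all groups overlapped, and none of the 10 markers was at 0 throughout a group. One of them, Fcgr1, a receptor that interferon induces, rose at day 1 (3.40 ± 0.77, adjusted p = 0.0364, edgeR), where 1.68% of all genes rose. Its level was low, at a mean of 0.295 CPM over all libraries, and its call is given for the main fit only. The other macrophage and monocyte markers did not pass at day 1, with log2 fold changes from -1.33 for Adgre1 to 1.24 for Cd68. The summed level of 8 neutrophil markers was 40.6 to 199 CPM at steady state, 147 to 260 CPM at day 1, 118 to 296 CPM at day 4 and 44.6 to 60.0 CPM at day 7. Ltf, which secretory epithelia also express, made up 77.1% to 97.8% of this sum in each library. Without Ltf the sum of the other 7 was 4.5 to 25.3 CPM at steady state, 21.6 to 42.1 CPM at day 1, 4.26 to 6.63 CPM at day 4 and 1.66 to 10.6 CPM at day 7, so the high sums at day 4 were those of Ltf. Of these 7, Csf3r, the G-CSF receptor of neutrophils, rose at day 1, from 0.048 to 0.285 CPM at steady state to 4.41 to 5.91 CPM (5.30 ± 0.66, adjusted p = 0.000707). None of the 8 was at 0 throughout a group. The part of neutrophils in the day 1 levels of the 10 chemokines was not tested.

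The summed level of 8 T and NK cell markers was 92.6 to 282 CPM at steady state, 49.8 to 60.5 CPM at day 1 and 16.9 to 24.4 CPM at day 4, and it was 87.3, 2075 and 878 CPM in the day 7 libraries. Over all libraries, Lck, Cd8a, Cd3e and Cd3g averaged 142, 71.0, 51.3 and 39.1 CPM. Nkg7, Gzmb, Klrd1 and Ncr1 averaged 3.01, 2.40, 0.565 and 0.102 CPM, so the sum mostly followed the T-lineage genes named first. Ccl5, which T and NK cells express, was measured at 1.43 and 0.922 CPM in day 7 replicates 2 and 3. In day 7 replicate 1, with 87.3 CPM of the markers, it was measured at 0.451 CPM. The part of T and NK cells in the Ccl5 values was not tested. The sum of 3 erythroid markers was 19565 to 33853 CPM at steady state, 3867 to 16795 CPM at day 1, 8.91 to 12.9 CPM at day 4 and 2546 to 7304 CPM at day 7. The sum of 7 fibroblast markers overlapped between all groups (12822 to 83397 CPM at steady state and 15677 to 43978 CPM at day 1). Col1a2, Dcn and Col1a1 averaged 11270, 10019 and 7650 CPM over all libraries, against 1796 CPM for Lum and 773 CPM for Pdgfra. So the sum mostly followed the genes named first. Its highest value, 83397 CPM, was in PBS day 4 replicate 2. Among the steady-state libraries, this one had the most Ccl2, Ccl7, Cxcl5 and Cxcl1 and the least Ccl11 (105 CPM) and Ccl5 (1.95 CPM). The part of the cell makeup in the chemokine values was not tested.

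**Figure D5:**
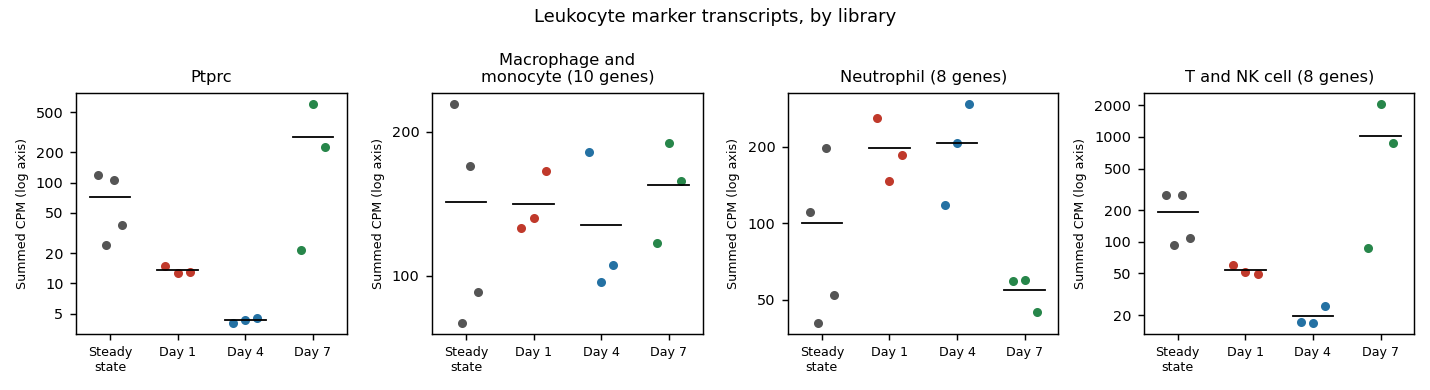
Summed CPM (log axis) of Ptprc, of 10 macrophage and monocyte markers, of 8 neutrophil markers and of 8 T and NK cell markers in each library, with points for libraries and bars for the means. Macrophage and monocyte markers overlap between all groups, the sum of neutrophil markers is mostly that of Ltf (77.1% to 97.8%), and Ptprc and the T and NK cell markers are highest in 2 of the 3 day 7 libraries.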

How the data were processed

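RNA of CD45- thymic stroma was sequenced in 13 libraries, of which 4 were of steady-state mice and the others of mice at day 1, day 4 or day 7 after SL-TBI (3 for each day). The deposited table holds raw read counts per gene, made by the authors with Trimmomatic 0.38, STAR 2.7.0e and featureCounts 1.6.3 (names from the submitters' processing notes) on GRCm38, with default parameters. The 13 count columns and the column of exonic length were used, and 0 count columns were left out. The steady-state columns could not be matched to the labels' replicate numbers and were used as replicates of their group. By default featureCounts counts without regard to strand, so strand was not used to assign reads over bases shared with an antisense gene.

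From these counts, 1 model of group was fitted to all libraries with edgeR 4.0.16 in R 4.3.3 (TMM normalization, filterByExpr, quasi-likelihood F-test), and p-values were adjusted by the Benjamini-Hochberg method over 19984 genes. Standard errors are the log2 fold change divided by the square root of F. DESeq2 1.42.0, another normalization, other filters, the compared groups alone, the replicate number, the column tag or GC content as a term, and leaving out each library were alternatives. The GC alternative was chosen after seeing the data. The scripts were tested on simulated data. Correlations used log2(CPM + 0.5).

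The 10 chemokines and the related lists were chosen with earlier results of these data known. Some items are not reported here and were left out of the related lists, with p-values still adjusted over all genes. From the related lists, the text names the genes past the threshold with the largest changes among those with a mean of at least 1 CPM. Cxcr2, Ccl3, Fcgr1, Csf3r and the genes below the threshold were named for their role or as the remainder of a small count, after their values were seen. Gene likeness was taken from the 5 genes of at least 5 CPM with the highest correlation to each role group.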

Additional observations from a re-analysis of the deposited data

Results flagged for a closer look

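Within the 4 steady-state libraries, 1 library stood apart from the other 3 by Dixon's test in 4 of the 16 genes examined (the 10 chemokines and 6 related genes). For a single gene, chance gives about 1 in 20. The flags of Cxcl2, Cxcl10 and Ccl5 fell on the same library, and these genes correlated within groups at 0.85 to 0.91. The flags are therefore not independent, and their number does not show an excess over chance. In PBS day 1 replicate 2, Cxcl2 was measured at 6.95 CPM against 1.84 to 2.35 CPM in the others (gap divided by range 0.901), Cxcl10 at 88.9 CPM against 19.3 to 29.2 CPM (0.858) and Ccl5 at 10.7 CPM against 1.95 to 3.0 CPM (0.880). In PBS day 4 replicate 2, Ccl2 was measured at 31.1 CPM against 6.78 to 9.41 CPM (0.892). The differences from steady state without each of these libraries are given with the levels and comparisons above.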

How the results depend on the processing

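Of the 10 chemokines, 0 passed the threshold at day 4 against steady state, where DESeq2 placed 1 (Ccl8). At day 7 the count of 0 became 4 by DESeq2 and 4 without a filter, and 0 to 1 when single libraries were left out. From day 4 to day 7 it became 4 by DESeq2, 1 with RLE normalization, 1 without a filter and 1 with the GC trend removed, and 0 to 3 when single libraries were left out. At day 1 the count of 5 ranged from 4 to 7. Among the other chemokines the count at day 1 was 5 by DESeq2, 1 with at least 10 counts in every library, 1 with the 2 groups alone and 1 with the replicate block. It was 3 by DESeq2 at day 4, with 0 to 1 when libraries were left out, and 6 by DESeq2 and 3 without a filter at day 7, with 0 to 2. Of the receptors at day 1, 1 passed with at least 10 counts in every library, 1 with the 2 groups alone and 0 with the replicate block, and 0 to 2 when libraries were left out. Of the inducing pathway genes, 1 passed at day 1 with the 2 groups alone and 5 with the column tag as a covariate, against 3 in the report, and 1 at day 7 by DESeq2. In each case the cause was not tested.

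Directions turned in differences that were not past the threshold. At day 4, Cxcl1 was at 0.0185 by DESeq2, 0.0188 with RLE normalization, 0.056 with the 2 groups alone, 0.31 with the replicate block and 0.0585 with the GC trend removed, and Ccl7 at 0.0438, 0.044, 0.0759, 0.13 and 0.079. At day 7, Cxcl5 was at -0.19 and Ccl8 at -0.22 with the column tag as a covariate, and Ccl11 at -0.0365 with at least 10 counts in every library and -0.0101 with the 2 groups alone. With single libraries left out, the ranges at day 4 were -0.44 to 0.23 for Cxcl1, -1.05 to 0.0611 for Cxcl10, -0.64 to 0.54 for Ccl2, -0.61 to 0.59 for Ccl5, -0.36 to 0.54 for Ccl7 and -0.0615 to 0.73 for Ccl11. At day 7 they were -0.11 to 1.02 for Cxcl5, -0.72 to 0.46 for Ccl8 and -0.24 to 0.46 for Ccl11, and from day 4 to day 7 they were -0.42 to 0.0659 for Ccl11. Of the fold changes over all alternatives, 1269 kept their direction and side of the threshold, 39 lost the threshold, 30 gained it and 41 changed sign. Counting Ccl11 without division by length gave 28.3% of the sum at day 1 and 70.4% at day 4.

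Deviations of same-numbered libraries from their group means correlated on average at -0.474 for day 1 with day 4, at -0.140 for day 1 with day 7 and at 0.0757 for day 4 with day 7. For libraries of unlike number the averages were 0.205, 0.0752 and -0.0423, and single pairs of day 1 with day 4 reached 0.578. Deviations within a group sum to 0, so these coefficients depend on each other and cannot decide whether libraries were paired. With the replicate block, 4 of the 10 chemokines passed at day 1 and 8 from day 1 to day 7. Cxcl2 rested on 7 to 29 counts per library at day 7, in libraries of 37054467 to 51609165 counts.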
